A study of Mus musculus with 28 samples.

Results

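The genes described here are 40 genes of mitosis, the step of the cell cycle in which duplicated chromosomes are condensed, attached to a spindle, pulled apart and enclosed in daughter cells. They were taken from a list of symbols, and all 40 were found among the 15423 genes of the first count table and among the 56941 genes of the second. All 40 passed the filter on low counts in both experiments. They fall into 9 kinesins and midzone proteins, 7 kinases and checkpoint or passenger proteins, 7 cyclins, Cdk1 and regulators of the anaphase-promoting complex, 6 proteins of chromosome structure, 5 kinetochore proteins, 3 spindle assembly factors and 3 cytokinesis proteins.

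The study measured polyadenylated RNA of mouse bone marrow macrophages in 2 separate sequencing experiments, with 4 libraries in each group. Experiment 1 (100 cycles) held Irgm_IFNAR-KO cells, without Irgm1 and without the receptor for type I interferon, Irgm1-KO cells, and WT cells. Experiment 2 (50 cycles) held Irgm1KO_fenofibrate, Irgm1KO_control, WT_fenofibrate and WT_control cells, and the fenofibrate groups received 50 µM of the drug, a lipid-lowering activator of PPARα. Marrow came from male and female mice aged 2 to 4 months, and the knockout strains had been crossed back to C57BL/6. In every group the adherent cells grew for 6 days with 20% L929-conditioned medium, the usual source of the macrophage growth factor CSF-1, and then spent 24 h without it. The labels give neither the time in fenofibrate nor what the control cells received, and they do not say whether the 4 libraries of a group came from separate mice, so p-values describe the spread between libraries. No group lacked the interferon receptor alone, so an effect of its loss by itself cannot be told apart from its effect in cells without Irgm1. IRGM1 is an interferon-inducible GTPase of membrane traffic, autophagy and mitochondrial upkeep, and cells without it are known for a raised type I interferon response.

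Most mitosis genes are silent in a resting cell and come on together late in the cycle. Their promoters are known for a short element called CHR, often beside CCAAT boxes, at which the DREAM complex represses them in resting cells and the MuvB core with B-MYB and FOXM1 activates them in dividing ones. Cultured macrophages divide while CSF-1 is present and leave the cycle when it is withdrawn. Messenger RNA from these genes is used to follow the share of cells near mitosis, and in bulk RNA a smaller share of such cells cannot be told apart from less RNA in each of them.

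Promoters of 35 members were present in the RefSeq promoter table for GRCm38.p6, a build older than the GRCm39 named for the count tables, so positions below belong to GRCm38.p6 only. The windows run from 250 bases before the annotated start to 50 after it, on the strand of the gene. A CHR match (TTTGAA or TTCGAA, either strand) was present in 28 of 35 members (80.0%) and in 21.7% of 27025 genes with a window. CCAAT, on either strand, was present in 25 of 35 members (71.4%) and in 41.1% of all genes, and both motifs were present in 23 of 35 (65.7%) and in 8.61% of all genes. Birc5, Ncaph, Nuf2, Nusap1 and Pttg1 held neither CHR nor CCAAT in this window. Tpx2, Smc4, Kif20a, Ccna2 and Aurkb had no entry. A match is only a description of letters. The windows printed next are those of 4 members that fell in Irgm1-KO and Irgm1KO_control cells and of Pttg1, which rose in both, each against its wild type. Capitals mark the CHR and CCAAT matches. Kif11 lies at chr19:37376132-37376431, plus strand, Cdc20 at chr4:118437294-118437593, minus strand, Plk1 at chr7:122159185-122159484, plus strand, Ccnb2 at chr9:70421505-70421804, minus strand, and Pttg1 at chr11:43425932-43426231, minus strand.
Kif11: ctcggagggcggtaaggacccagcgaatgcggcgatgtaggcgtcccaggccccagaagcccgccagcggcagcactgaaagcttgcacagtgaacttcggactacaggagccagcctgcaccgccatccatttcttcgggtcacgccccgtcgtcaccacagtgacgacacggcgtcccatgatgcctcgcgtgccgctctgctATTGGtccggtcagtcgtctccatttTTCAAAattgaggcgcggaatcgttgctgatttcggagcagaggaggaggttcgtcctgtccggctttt
Cdc20: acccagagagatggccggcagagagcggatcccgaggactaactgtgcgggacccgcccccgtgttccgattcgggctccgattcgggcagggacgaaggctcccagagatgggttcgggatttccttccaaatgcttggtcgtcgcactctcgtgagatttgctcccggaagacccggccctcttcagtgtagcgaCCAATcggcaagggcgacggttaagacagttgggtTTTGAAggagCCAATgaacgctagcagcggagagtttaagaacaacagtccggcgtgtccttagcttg
Plk1: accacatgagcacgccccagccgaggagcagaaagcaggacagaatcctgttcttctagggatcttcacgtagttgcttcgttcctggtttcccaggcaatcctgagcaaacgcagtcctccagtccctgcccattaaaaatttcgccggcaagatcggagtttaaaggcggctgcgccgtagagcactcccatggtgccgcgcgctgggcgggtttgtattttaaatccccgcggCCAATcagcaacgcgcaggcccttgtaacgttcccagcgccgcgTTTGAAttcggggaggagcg
Ccnb2: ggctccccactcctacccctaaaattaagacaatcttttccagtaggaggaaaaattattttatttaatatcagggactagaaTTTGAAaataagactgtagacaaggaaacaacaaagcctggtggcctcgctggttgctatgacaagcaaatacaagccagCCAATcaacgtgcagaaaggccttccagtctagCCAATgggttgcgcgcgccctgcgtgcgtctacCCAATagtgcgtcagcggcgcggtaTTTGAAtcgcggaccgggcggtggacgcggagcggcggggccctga
Pttg1: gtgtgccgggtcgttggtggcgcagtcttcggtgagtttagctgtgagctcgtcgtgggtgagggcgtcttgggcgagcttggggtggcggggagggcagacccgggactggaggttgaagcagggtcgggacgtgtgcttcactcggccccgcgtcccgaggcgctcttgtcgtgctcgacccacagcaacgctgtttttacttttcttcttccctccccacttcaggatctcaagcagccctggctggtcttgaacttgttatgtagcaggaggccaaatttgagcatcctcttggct
Kif11 had 1 CHR and 1 CCAAT match, Cdc20 had 1 and 2, Plk1 had 1 and 1, and Ccnb2 had 2 and 3, while Pttg1 had 0 of either. Birc5, Ncaph, Nuf2 and Nusap1 also had 0 of either, yet fell in both comparisons in which Pttg1 rose. Tpx2, which rose with Pttg1, had no entry, and Pttg1 itself fell in Irgm_IFNAR-KO cells against WT. A link between these matches and the direction of change was not tested.

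Depth was 48652844 to 70455339 counts per library in experiment 1 and 82362311 to 120844616 counts in experiment 2. Irgm1 counts stayed at 641 to 786 CPM in Irgm_IFNAR-KO libraries, 628 to 839 CPM in Irgm1-KO libraries and 1189 to 1352 CPM in WT libraries, and its fall was called in all comparisons of a knockout with its wild type. CPM here is the count of a gene scaled to the effective size of its library, so that libraries can be compared. Ifnar1 was 114, 109, 53.1 and 108 CPM in Irgm_IFNAR-KO libraries, 112 to 127 CPM in Irgm1-KO libraries and 128 to 141 CPM in WT libraries. Its log2 fold change in Irgm_IFNAR-KO against WT was -0.50 (edgeR adjusted p = 0.119). Only Irgm_IFNAR-KO replicate 3 lay far below the Irgm1-KO libraries, and the reason was not tested. Counts from outside a deleted part may remain for both Irgm1 and Ifnar1. The 10 macrophage markers summed to 29285 to 40567 CPM in Irgm_IFNAR-KO libraries, 9877 to 15093 CPM in Irgm1-KO libraries and 21809 to 42031 CPM in WT libraries. In experiment 2 they summed to 15273 to 18663 CPM in Irgm1KO_fenofibrate, 10937 to 13153 in Irgm1KO_control, 14228 to 22746 in WT_fenofibrate and 22488 to 31060 CPM in WT_control. The single macrophage markers did not all follow these sums, and 2 of 10 were called higher and 4 lower in Irgm1-KO against WT (median log2 fold change -0.22), 0 and 2 in Irgm_IFNAR-KO against WT, and 5 and 4 in Irgm_IFNAR-KO against Irgm1-KO. In Irgm1KO_control against WT_control 2 were higher and 6 lower (median -0.44), in Irgm1KO_fenofibrate against Irgm1KO_control 3 and 5 (median -0.22), and in WT_fenofibrate against WT_control 1 and 6. Progenitor markers, which could mark dividing precursors, summed to 3.72 to 4.39 CPM in Irgm_IFNAR-KO, 1.51 to 1.87 in Irgm1-KO and 3.46 to 5.11 CPM in WT. Dendritic cell markers summed to 57.7 to 65.7 CPM in Irgm_IFNAR-KO, 21.6 to 26.0 in Irgm1-KO and 46.0 to 54.3 CPM in WT, and neutrophil markers to 16.1 to 26.0, 5.69 to 9.78 and 16.4 to 41.0 CPM in the same groups, with 5 of the 6 neutrophil markers tested called lower in Irgm1-KO against WT and Elane at 0 in all Irgm1-KO libraries. Lymphoid, erythroid, mast cell and stromal markers stayed at or below 1.88 CPM in every library. The count table of experiment 1 held only 1 of 10 lymphoid, 0 of 7 erythroid, 2 of 5 mast cell and 3 of 7 stromal markers. It held 3 of 5 progenitor, 5 of 6 dendritic cell and 8 of 10 neutrophil markers, so these sums of experiment 1 are partial. Erythroid markers could not be judged there. The part of these differences in the results was not tested. Within each group of experiment 1, 1 library stood apart by a fall of values with gene length (Irgm_IFNAR-KO replicate 4, Irgm1-KO replicate 3 and WT replicate 2), and results are given without these 3 libraries where that matters. WT replicate 1 went the other way, with a slope of log2 level on log2 length of 0.15. In experiment 2, Irgm1KO_fenofibrate replicate 2 also fell with gene length (slope -0.072, the others of its group 0.010 to 0.032). Leaving out any 1 replicate kept 38 members higher and 2 lower in Irgm1KO_fenofibrate against Irgm1KO_control.

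The first question was how loss of Irgm1 alone changed these genes in experiment 1. In Irgm1-KO cells 38 of 40 members fell and 2 rose against WT, at an adjusted p under 0.05 (edgeR quasi-likelihood test, Benjamini-Hochberg over 13998 genes). Over all genes tested, 20.7% were called lower and 19.8% higher. The median log2 fold change was -1.81 over the members and -0.02 over all genes. Libraries of the groups did not overlap for 39 members, 37 of them lower in Irgm1-KO and 2 higher, where 17.5% of all genes tested were lower without overlap and 17.5% higher. The 2 that rose were Tpx2 and Pttg1. Without the 3 libraries that stood apart, 38 fell and 2 rose, with a median of -1.69.

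Summed over the 40 members, the level was 525, 430.2, 579.6 and 469 CPM in Irgm_IFNAR-KO, 549, 563, 541 and 526 CPM in Irgm1-KO, and 1278, 1314, 1008 and 1194 CPM in WT. Every library of both knockouts lay below every WT library. Without Pttg1 and Tpx2 the other 38 members summed to 486.1 ± 63.0 CPM in Irgm_IFNAR-KO, 362.7 ± 11.96 CPM in Irgm1-KO and 1143 ± 133 CPM in WT (SD, n = 4 each). Irgm_IFNAR-KO libraries lay above Irgm1-KO libraries once these 2 genes were left out.

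**Figure D1:**
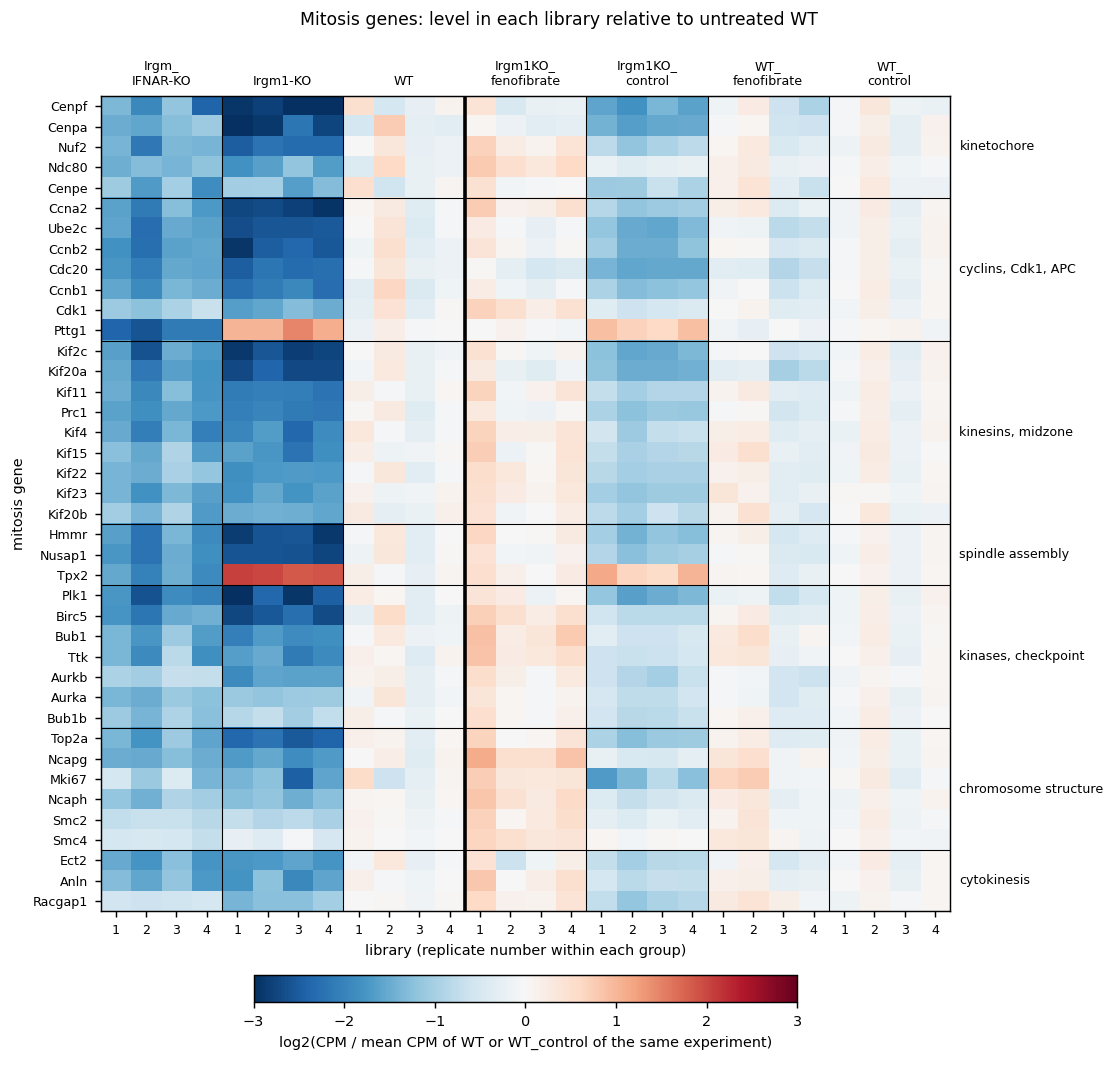
Level of each of the 40 members (down the page, by role) in each of 28 libraries (across, by group), as log2 of CPM over the mean of WT in experiment 1 or of WT_control in experiment 2, on a colour scale limited at 3 in either direction. Nearly all members are low in Irgm_IFNAR-KO, Irgm1-KO and Irgm1KO_control libraries, 34 have a mean above that of WT_control in Irgm1KO_fenofibrate libraries, and Pttg1 and Tpx2 are high in Irgm1-KO and Irgm1KO_control libraries.

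**Figure D2:**
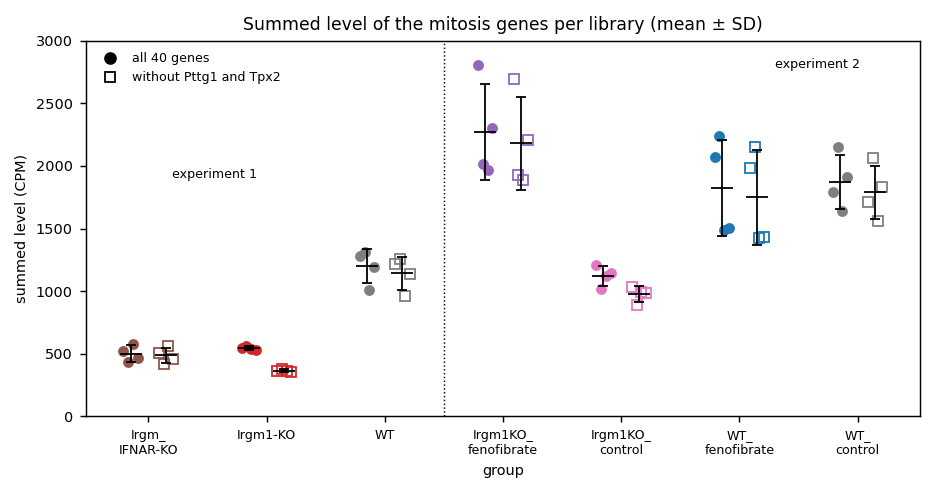
Summed CPM of all 40 members and of the 38 members other than Pttg1 and Tpx2 in each library (points), with the group mean and SD. Irgm1KO_fenofibrate libraries lie between 1971 and 2805 CPM for all 40, above Irgm1KO_control libraries at 1015 to 1209 CPM.

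All 9 kinesins and midzone proteins fell in Irgm1-KO cells, with a median log2 fold change of -1.94. Kif11, the motor that pushes the spindle poles apart, was 11.8, 8.79, 13.7 and 9.77 CPM in Irgm_IFNAR-KO, 7.72, 8.05, 7.92 and 7.13 CPM in Irgm1-KO and 37.9, 32.5, 28.5 and 34.5 CPM in WT. All Irgm1-KO libraries lay below all Irgm_IFNAR-KO libraries, and these lay below all WT libraries. The log2 fold change of Kif11 in Irgm1-KO against WT was -2.11, SE 0.14, adjusted p = 2.45e-07 (edgeR). Kif23, the motor of the centralspindlin complex, was 10.8, 8.04, 11.2 and 9.22 CPM in Irgm_IFNAR-KO, 8.06, 9.8, 8.17 and 9.33 CPM in Irgm1-KO and 31.3, 25.5, 26.3 and 30.6 CPM in WT. Its Irgm_IFNAR-KO and Irgm1-KO libraries overlapped, and both groups lay below WT (-1.69, SE 0.12 for Irgm1-KO). Prc1, which bundles the antiparallel microtubules of the midzone, was 11.2, 9.45, 11.7 and 10.3 CPM in Irgm_IFNAR-KO, 8.26, 8.64, 7.75 and 7.65 CPM in Irgm1-KO and 35.1, 40.9, 26.6 and 33.4 CPM in WT. Prc1 changed by -2.07, SE 0.12 in Irgm1-KO, and the 3 groups did not overlap. Among the others Kif2c, a microtubule depolymerase that corrects faulty attachments, fell the furthest (-2.75, SE 0.22), followed by Kif20a, which carries the passenger complex to the midzone (-2.62, SE 0.15). Kif20b fell the least (-1.49, SE 0.18). Kif4 and Kif22, chromosome-bound kinesins, and Kif15, a spindle motor that can stand in for Kif11, changed by -1.94, -1.75 and -1.83.

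Of the 7 cyclins, Cdk1 and regulators of the anaphase-promoting complex, 6 fell and Pttg1 rose in Irgm1-KO cells (median -2.29). Cdk1, the kinase that drives entry into mitosis, was 15.8, 14.4, 17.5 and 21.2 CPM in Irgm_IFNAR-KO, 10.7, 11.4, 13.7 and 12.1 CPM in Irgm1-KO and 27.9, 45.5, 26.8 and 34.2 CPM in WT. No library of one group reached the range of another, with Irgm1-KO lowest and WT highest (-1.49, SE 0.17, adjusted p = 2.99e-05 for Irgm1-KO against WT, edgeR). Ccnb1, its B-type cyclin partner, was 7.47, 5.88, 8.55 and 7.85 CPM in Irgm_IFNAR-KO, 4.63, 5.15, 5.82 and 4.56 CPM in Irgm1-KO and 17.7, 34.3, 16.4 and 20.2 CPM in WT. Irgm_IFNAR-KO libraries lay between those of Irgm1-KO and WT here too. The fall of Ccnb1 in Irgm1-KO was -2.13, SE 0.22 as a log2 fold change, and that of its relative Ccnb2 was -2.56, SE 0.21. Cdc20, the activator of the anaphase-promoting complex at the onset of anaphase, was 5.08, 4.09, 5.94 and 5.71 CPM in Irgm_IFNAR-KO, 3.098, 3.81, 3.47 and 3.54 CPM in Irgm1-KO and 16.7, 21.8, 14.7 and 15.1 CPM in WT. Ube2c, the ubiquitin-conjugating enzyme that works with that complex, was 11.2, 6.91, 11.8 and 11.02 CPM in Irgm_IFNAR-KO, 5.33, 5.66, 5.69 and 5.82 CPM in Irgm1-KO and 33.3, 43.6, 25.1 and 32.3 CPM in WT. Both genes were lowest in Irgm1-KO and highest in WT, with no overlap (-2.29, SE 0.15 for Cdc20 and -2.58, SE 0.19 for Ube2c). Ccna2, the cyclin of S phase and early mitosis, fell by more than any other member except Cenpf (-2.79, SE 0.18).

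All 7 mitotic kinases, checkpoint and passenger proteins fell in Irgm1-KO cells (median -1.78). Plk1, the polo-like kinase of spindle poles and kinetochores, was 4.59, 2.501, 4.18 and 3.78 CPM in Irgm_IFNAR-KO, 1.83, 2.997, 2.03 and 2.79 CPM in Irgm1-KO and 17.9, 15.99, 12.1 and 15.3 CPM in WT. Plk1 fell to 2.41 ± 0.571 CPM in Irgm1-KO, against 15.3 ± 2.397 CPM in WT (SD, n = 4 each; log2 fold change -2.66, SE 0.21, adjusted p = 1.38e-06, edgeR). Aurkb, the kinase of the chromosomal passenger complex, was 14.2, 13.3, 17.04 and 16.6 CPM in Irgm_IFNAR-KO, 7.24, 9.13, 9.003 and 8.997 CPM in Irgm1-KO and 29.3, 30.7, 22.8 and 26.4 CPM in WT. Birc5, the survivin subunit of the same complex, was 6.299, 4.75, 7.55 and 7.85 CPM in Irgm_IFNAR-KO, 3.204, 3.69, 4.45 and 3.33 CPM in Irgm1-KO and 17.5, 31.6, 17.2 and 19.3 CPM in WT. For both passenger genes every Irgm_IFNAR-KO library lay above every Irgm1-KO library and below every WT library (-1.67, SE 0.12 and -2.54, SE 0.23 for Irgm1-KO against WT). In WT replicate 2 Birc5 stood above the other WT libraries. Bub1, a checkpoint kinase of the kinetochore, was 5.62, 4.34, 6.83 and 4.599 CPM in Irgm_IFNAR-KO, 3.54, 4.51, 3.94 and 4.11 CPM in Irgm1-KO and 14.3, 18.1, 12.96 and 13.3 CPM in WT. Ttk, the kinase that starts the checkpoint signal, was 2.002, 1.39, 2.96 and 1.46 CPM in Irgm_IFNAR-KO, 1.66, 1.82, 1.202 and 1.38 CPM in Irgm1-KO and 5.82, 5.43, 3.96 and 5.62 CPM in WT. Irgm_IFNAR-KO and Irgm1-KO libraries overlapped for both checkpoint kinases and lay below WT (-1.86, SE 0.16 and -1.78, SE 0.24 for Irgm1-KO). Bub1b, a part of the checkpoint complex that holds Cdc20, fell the least of this group (-0.83, SE 0.12), and Aurka, the kinase of spindle poles, changed by -1.11, SE 0.13.

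All 5 kinetochore genes fell, with a median of -2.32. Cenpa, the histone H3 variant that marks centromeres, was 12.9, 12.1, 14.9 and 16.9 CPM in Irgm_IFNAR-KO, 4.46, 4.83, 8.02 and 5.32 CPM in Irgm1-KO and 24.8, 61.2, 29.1 and 28.6 CPM in WT. WT replicate 2 was highest for Cenpa by a wide gap, yet all Irgm1-KO libraries lay below all others (-2.66, SE 0.30 for Irgm1-KO against WT). Cenpf, a large kinetochore and nuclear matrix protein, was 9.099, 6.06, 10.1 and 4.37 CPM in Irgm_IFNAR-KO, 3.06, 3.35, 2.13 and 2.25 CPM in Irgm1-KO and 32.1, 15.99, 19.7 and 24.9 CPM in WT. No member fell further in Irgm1-KO than Cenpf (-3.11, SE 0.30, adjusted p = 6.45e-06, edgeR), and the 3 groups did not overlap. Ndc80, which binds microtubule ends, was 5.599, 6.27, 5.94 and 6.79 CPM in Irgm_IFNAR-KO, 4.41, 5.05, 6.803 and 4.89 CPM in Irgm1-KO and 11.8, 23.5, 13.2 and 13.7 CPM in WT. Ndc80 changed by -1.55, SE 0.21 in Irgm1-KO and did not separate the knockouts from each other. Nuf2, its partner, changed by -2.32, SE 0.18, and Cenpe, a kinetochore kinesin, by -1.23, SE 0.26.

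The 6 genes of chromosome structure all fell, and by less (median -1.44). Top2a, the topoisomerase that untangles sister chromatids, was 60.5, 45.03, 72.97 and 52 CPM in Irgm_IFNAR-KO, 30.8, 33.5, 27.1 and 29.6 CPM in Irgm1-KO and 173, 168, 123 and 162 CPM in WT. The groups were in the same order as for Kif11, with no overlap, and the fall in Irgm1-KO was -2.37, SE 0.16, adjusted p = 2.85e-07 (edgeR). Mki67, the Ki-67 protein that coats mitotic chromosomes and is used as a marker of cycling cells, was 55.9, 37.6, 60.9 and 30.8 CPM in Irgm_IFNAR-KO, 31.005, 34.7, 14.98 and 26.9 CPM in Irgm1-KO and 119, 52.6, 67.2 and 85.8 CPM in WT. Mki67 was scattered in both knockouts, its Irgm_IFNAR-KO libraries overlapped those of WT, and its fall was called in Irgm1-KO (-1.59, SE 0.32, adjusted p = 0.00159, edgeR) and not in Irgm_IFNAR-KO, while the difference between the knockouts was not called either. Ncapg, a subunit of condensin I, was 4.53, 4.45, 5.18 and 4.495 CPM in Irgm_IFNAR-KO, 3.88, 4.34, 3.49 and 3.87 CPM in Irgm1-KO and 12.5, 14.6, 9.87 and 13.7 CPM in WT. Ncapg was lower in both knockouts than in WT and higher in Irgm_IFNAR-KO than in Irgm1-KO libraries without overlap, though that second difference was not called (-1.70, SE 0.12 for Irgm1-KO against WT). Ncaph, also of condensin I, changed by -1.29, SE 0.12. Smc2 and Smc4, the ATPases shared by both condensins and not limited to mitotic cells, changed by -0.83, SE 0.083 and -0.28, SE 0.10, and Smc4 was the member whose Irgm1-KO and WT libraries overlapped.

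The 3 cytokinesis genes fell, with a median of -1.61. Anln, which anchors the contractile ring, was 8.68, 7.25, 9.42 and 6.51 CPM in Irgm_IFNAR-KO, 6.22, 9.09, 5.58 and 7.22 CPM in Irgm1-KO and 23.8, 20.99, 19.5 and 21.7 CPM in WT. Both knockouts lay below WT and overlapped each other (-1.61, SE 0.16 for Irgm1-KO). Ect2, the exchange factor that activates RhoA at the division plane, changed by -1.70, SE 0.14. Racgap1, the partner of Kif23 in centralspindlin, changed by -1.23, SE 0.083. Of the spindle assembly factors, Nusap1 and Hmmr, both microtubule-binding proteins, changed by -2.63, SE 0.17 and -2.72, SE 0.19, while Tpx2 rose.

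Tpx2 and Pttg1 went the opposite way from the other 38 members. TPX2 activates Aurora A on spindle microtubules, and Pttg1 encodes securin, the inhibitor of separase that is destroyed at anaphase. Tpx2 was 12.5, 8.91, 13.1 and 9.67 CPM in Irgm_IFNAR-KO, 149.8, 145, 131 and 133 CPM in Irgm1-KO and 40.7, 35.3, 30.4 and 38.7 CPM in WT. Pttg1 was 3.65, 3.11, 4.34 and 4.304 CPM in Irgm_IFNAR-KO, 38.5, 38.04, 51.7 and 39.8 CPM in Irgm1-KO and 16.7, 21.8, 18.2 and 18.8 CPM in WT. For both genes every Irgm1-KO library lay above every WT library, and every Irgm_IFNAR-KO library lay below every WT library. The log2 fold changes of Tpx2 were 1.95, SE 0.13, adjusted p = 3.98e-07 in Irgm1-KO and -1.72, SE 0.14, adjusted p = 6.44e-06 in Irgm_IFNAR-KO, each against WT (edgeR). Those of Pttg1 were 1.16, SE 0.13, adjusted p = 2.74e-05 in Irgm1-KO and -2.29, SE 0.14, adjusted p = 8.52e-07 in Irgm_IFNAR-KO. Slu7, the gene next to Pttg1, changed by 0.34 in Irgm1-KO (edgeR adjusted p = 0.023) and by -0.08 in Irgm_IFNAR-KO, which was not called. Bcl2l1, next to Tpx2, changed by 0.24 and -0.46, both called (edgeR adjusted p = 0.025 and 0.0015). In these comparisons each neighbour's value had the sign of its member's and was smaller. In experiment 2, Slu7 changed by 0.19 in Irgm1KO_control against WT_control and -0.33 with fenofibrate in Irgm1KO cells, both called. Both directions were those of Pttg1. Bcl2l1 changed by 0.23 and 0.33 there, both called, so it rose with fenofibrate where Tpx2 fell. Cox4i2, also near Tpx2 and at 27 counts or fewer, changed by -0.77 (not called) and 1.93 (called), each opposite to Tpx2. A shared cause was not tested.

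**Figure D3:**
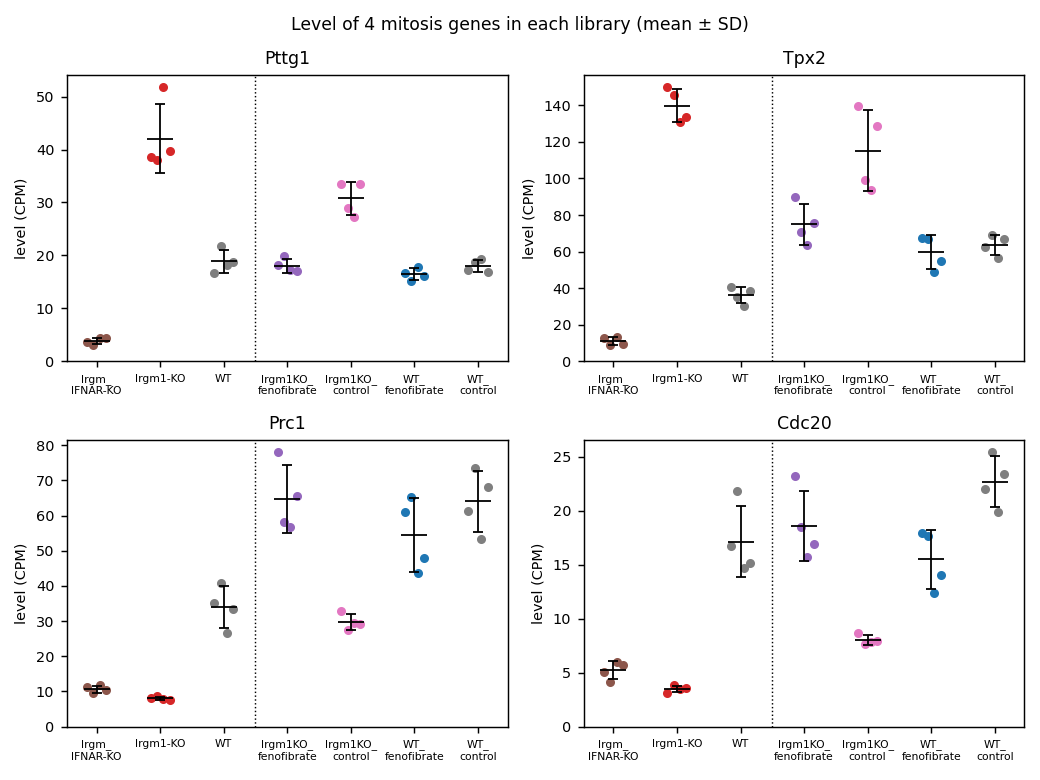
CPM of Pttg1, Tpx2, Prc1 and Cdc20 in each library (points), with group means, in the groups of both experiments. Pttg1 and Tpx2 are highest in Irgm1-KO among the groups of experiment 1 and in Irgm1KO_control among those of experiment 2, where Prc1 and Cdc20 are lowest.

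The second question was what was left of this when the interferon receptor was missing too. In Irgm_IFNAR-KO cells 39 of 40 members fell against WT and 0 rose, where 8.22% of all genes tested were called lower and 3.94% higher. The median log2 fold change was -1.49 over the members and 0.01 over all genes. Libraries of these groups did not overlap for 39 members, all lower, where 10.4% of all genes were lower without overlap and 7.5% higher. Mki67 was the exception (-0.81, SE 0.31, adjusted p = 0.129, edgeR), and without the 3 libraries that stood apart all 40 were called lower. The falls were largest for Pttg1 (-2.29, SE 0.14), Plk1 (-2.02, SE 0.21) and Kif2c (-1.80, SE 0.21), and smallest for Smc4 (-0.56, SE 0.10) and Racgap1 (-0.58, SE 0.082). By role, all 9 kinesins and midzone genes fell (median -1.59), all 7 kinases and checkpoint genes (median -1.41), all 7 cyclins and regulators, Pttg1 included (median -1.71), all 5 kinetochore genes (median -1.36), all 3 spindle assembly factors (median -1.75), all 3 cytokinesis genes (median -1.43), and 5 of 6 chromosome structure genes (median -0.96). Kif11 changed by -1.59, SE 0.14, Cdk1 by -0.97, SE 0.17, Aurkb by -0.84, SE 0.12 and Top2a by -1.44, SE 0.15.

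The direct comparison of Irgm_IFNAR-KO with Irgm1-KO cells called 21 members higher and 4 lower, and of all genes tested 21.5% were called higher and 21.3% lower. The median was 0.52 over the members and 0.02 over all genes. The same Irgm1-KO and WT libraries enter these comparisons, so their values are set side by side and not counted as independent. Cenpf (1.46, SE 0.29), Cenpa (1.33, SE 0.29) and Ccna2 (1.15, SE 0.17) were raised the most in Irgm_IFNAR-KO. The 4 lower members were Tpx2 (-3.66, SE 0.15), Pttg1 (-3.45, SE 0.15), Bub1b (-0.33, SE 0.12) and Smc4 (-0.28, SE 0.10). Only 2 were lower when Irgm1-KO replicate 1, or Irgm_IFNAR-KO replicate 1, 2 or 4, was left out. By role, 6 of 9 kinesins and midzone genes, 5 of 7 cyclins and regulators, 3 of 7 kinases and checkpoint genes, 3 of 5 kinetochore genes, 2 of 3 spindle assembly factors, 1 of 3 cytokinesis genes and 1 of 6 chromosome structure genes were higher. For 34 members the mean of Irgm_IFNAR-KO lay between those of Irgm1-KO and WT, and for 6 members, Aurka, Bub1b, Cenpe, Pttg1, Smc4 and Tpx2, it lay below both. Macrophage, progenitor, dendritic and neutrophil marker sums were also higher in Irgm_IFNAR-KO than in Irgm1-KO libraries, though 4 of the 10 macrophage markers were called lower and 5 higher, and their part in these differences was not tested.

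**Figure D4:**
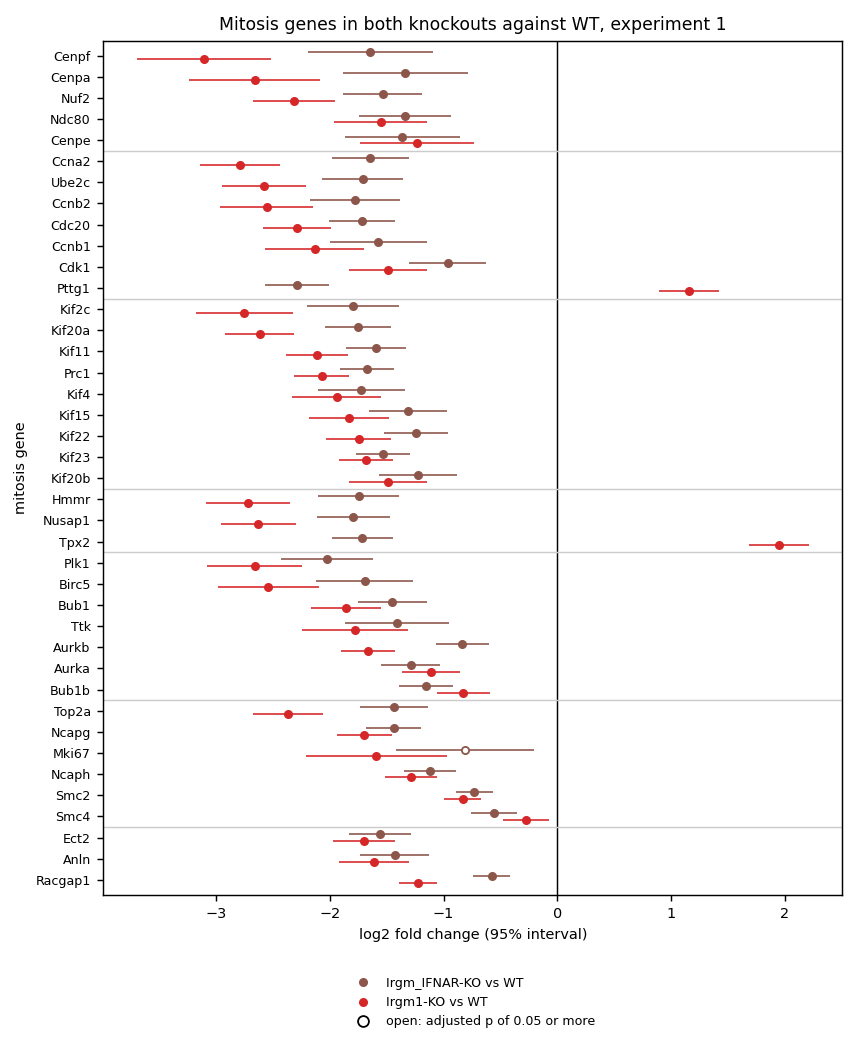
Log2 fold change of each member with its 95% interval for Irgm_IFNAR-KO and Irgm1-KO, each against WT, in experiment 1 (open circles, adjusted p of 0.05 or more). Tpx2 at 1.95 and Pttg1 at 1.16 are right of 0 in Irgm1-KO, and every member is left of 0 in Irgm_IFNAR-KO.

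Genes around the members were followed as lists, and their counts stand beside the shares of all genes called higher and lower, 19.8% and 20.7% in Irgm1-KO against WT and 3.94% and 8.22% in Irgm_IFNAR-KO against WT. A count near these shares is no result about its list. Of 60 other mitosis genes, 51 fell and 0 rose in Irgm1-KO (median -1.58), and 51 fell and 0 rose in Irgm_IFNAR-KO (median -1.41), both against WT. Among them in Irgm1-KO were Ckap2 and Ckap2l, which bind spindle microtubules (-2.40 and -2.61), and Pbk, a mitotic kinase (-2.84). Of 38 DNA replication genes, 6 rose and 13 fell in Irgm1-KO (median -0.09), while 28 fell and 0 rose in Irgm_IFNAR-KO (median -0.70). The contrast between the replication and mitosis lists was not tested. Of 22 DREAM, FOXM1 and E2F regulators tested, 3 rose and 8 fell in Irgm1-KO, and 0 rose and 6 fell in Irgm_IFNAR-KO. Foxm1, the activator of mitosis genes, changed by -1.73, SE 0.21 in Irgm1-KO and -1.56, SE 0.21 in Irgm_IFNAR-KO, and E2f7, a repressor, by -2.36, SE 0.30 and -1.62, SE 0.28. Of 12 G1 cyclins and growth factor response genes, 5 rose and 2 fell in Irgm1-KO, and 0 rose and 5 fell in Irgm_IFNAR-KO. The cyclins of G1 Ccnd1, Ccnd2 and Ccne1 rose in Irgm1-KO by 0.96, 1.66 and 1.67, as did Csf1, the growth factor itself (1.70). In Irgm_IFNAR-KO against WT, Ccnd1 changed by -1.19, Ccnd2 by -1.22 and Csf1 by -1.65. Of 17 subunits of the anaphase-promoting complex, 1 rose and 2 fell in Irgm1-KO, and of 13 cohesin and condensin genes 5 fell. The condensin genes Ncapd2, Ncapd3, Ncapg2 and Ncaph2 are also on the list of other mitosis genes and are counted in both lists. Of 18 inhibitors of cyclin-dependent kinases and p53 targets, 9 rose and 7 fell in Irgm1-KO, and 1 rose and 5 fell in Irgm_IFNAR-KO. Set against Irgm1-KO, where 21.5% of all genes were higher and 21.3% lower, Irgm_IFNAR-KO cells had 16 of the other mitosis genes higher and 5 lower, 1 replication gene higher and 22 lower, and 1 of the G1 and growth factor genes higher and 5 lower, with Csf1 at -3.35, Ccnd2 at -2.88 and Ccnd1 at -2.15. Regulators gave 6 higher and 6 lower, inhibitors and p53 targets 8 higher and 7 lower, anaphase-promoting complex subunits 1 higher and 2 lower, and cohesin and condensin genes 3 higher and 0 lower.

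Experiment 2 repeated the loss of Irgm1 in cells without the drug. In Irgm1KO_control cells 34 of 40 members fell and 2 rose against WT_control, and of 15429 genes tested 26.1% were called lower and 27.3% higher. The median log2 fold change was -0.89 over the members and 0.00 over all genes. Libraries did not overlap for 39 members, 37 lower and 2 higher, with Smc4 the exception, where 26.3% of all genes were lower without overlap and 27.8% higher. The 2 that rose were again Tpx2 and Pttg1. Ncapg, Ndc80, Smc2 and Smc4 were not called (-0.36, -0.26, -0.30 and 0.00). The falls were largest for Cenpf (-1.59, SE 0.24), Cenpa (-1.53, SE 0.15) and Cdc20 (-1.50, SE 0.13). By role, all 9 kinesins and midzone genes fell, all 7 kinases and checkpoint genes, 6 of 7 cyclins and regulators, 4 of 5 kinetochore genes, 3 of 6 chromosome structure genes, 2 of 3 spindle assembly factors and all 3 cytokinesis genes.

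With fenofibrate the Irgm1-deficient cells changed in the other direction. In Irgm1KO_fenofibrate cells 38 of 40 members rose and 2 fell against Irgm1KO_control, and of all genes tested 23.5% were called higher and 22.2% lower. The median was 1.13 over the members and 0.01 over all genes, and no member had overlapping libraries (38 higher and 2 lower). Of all genes, 20.7% were higher without overlap and 20.8% lower. The 34 members that were lower in Irgm1KO_control than in WT_control all rose with fenofibrate, and the 2 that were higher, Tpx2 and Pttg1, fell. These comparisons share the Irgm1KO_control libraries, so opposite signs are not independent of each other. The rises were largest for Mki67 (1.70, SE 0.22), Kif2c (1.54, SE 0.16) and Plk1 (1.54, SE 0.15) and smallest for Smc4 (0.47, SE 0.096). Among members not followed library by library, Hmmr changed by 1.47, SE 0.16, Ccna2 by 1.45, SE 0.17, Ccnb2 by 1.39, SE 0.16, Racgap1 by 1.24, SE 0.12 and Aurka by 0.77, SE 0.11. Each of the role groups rose whole except for Tpx2 and Pttg1, with medians between 1.09 and 1.29.

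Few of these genes were called with the drug in WT cells in the main fit, which leaves out the pairing of libraries by replicate number. In WT_fenofibrate cells 0 members rose and 2 fell against WT_control, Kif20a (-0.56, SE 0.16, adjusted p = 0.0132) and Cdc20 (-0.55, SE 0.13, adjusted p = 0.00308, edgeR), where 18.1% of all genes were called higher and 16.9% lower. The median was -0.08 over the members and 0.02 over all genes. At an unadjusted p under 0.05, 0 were higher and 6 lower, where 43.5% of all genes passed in either direction, and DESeq2 called 4 lower. Same-numbered control and fenofibrate libraries deviated together within a genotype. With the replicate number as a block, 10 members fell and 1 rose in WT_fenofibrate, the 10 being Aurka, Aurkb, Ccnb1, Cdc20, Cenpa, Kif20a, Kif2c, Plk1, Prc1 and Ube2c, with log2 fold changes between -0.59 and -0.24, and the 1 being Ncapg (0.23). With that block 21% of all genes were called lower and 22.7% higher, so 10 of 40 lower is near the share of all genes. Without the block, leaving out WT_control replicate 3 or WT_fenofibrate replicate 2 gave 5 lower, leaving out WT_fenofibrate replicate 1 gave 6, and the median turned just positive (up to 0.0065) without WT_fenofibrate replicate 3 or 4. WT_fenofibrate replicates 1 and 2 were both above replicates 3 and 4 for 39 members.

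The difference between the genotypes in their change with fenofibrate was tested as an interaction. It was positive and called for 37 members and negative and called for 1, Pttg1 (-0.64, SE 0.11, adjusted p = 3.91e-04, edgeR), and of all genes tested 14.9% were called positive and 14.7% negative. The median was 1.27 over the members and -0.003 over all genes. Plk1 (1.91, SE 0.21), Kif20a (1.88, SE 0.23) and Kif2c (1.81, SE 0.23) had the largest values. Tpx2 (-0.52, SE 0.20, adjusted p = 0.0579) and Smc4 (0.30, SE 0.14, adjusted p = 0.107) were not called. With the replicate block 2 members were negative and called.

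**Figure D5:**
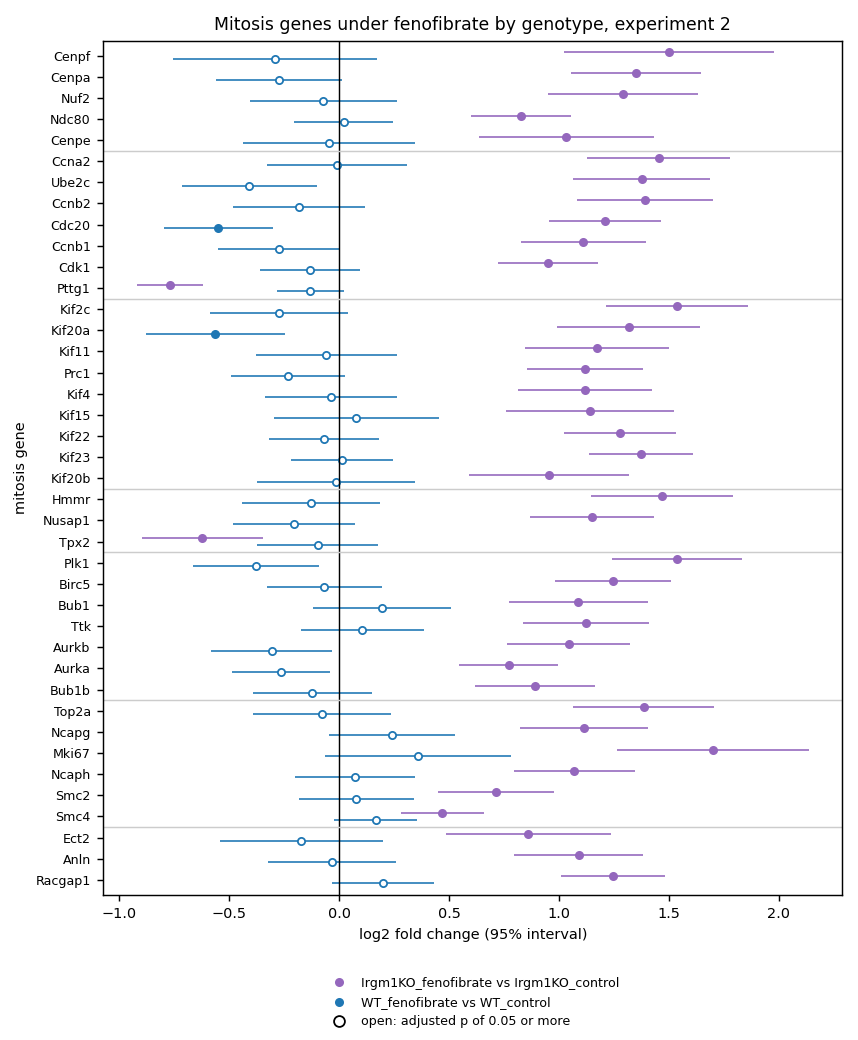
Log2 fold change of each member with its 95% interval for fenofibrate against control in Irgm1KO and in WT cells of experiment 2 (open circles, adjusted p of 0.05 or more). Apart from Tpx2 and Pttg1, all Irgm1KO values lie right of 0, between 0.47 and 1.70, and WT values lie between -0.56 and 0.36.

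Single libraries show how far apart the groups were, beginning with the kinesins. Kif11 was 87.9, 52.1, 59.9 and 71.9 CPM in Irgm1KO_fenofibrate and 33.3, 27.3, 29.8 and 30.1 CPM in Irgm1KO_control, and in WT cells 59.4, 66.6, 43.1 and 42.2 CPM in WT_fenofibrate and 50.1, 64.01, 48.3 and 57.6 CPM in WT_control. Its log2 fold changes were -0.87 in Irgm1KO_control against WT_control, 1.17 with fenofibrate in Irgm1KO cells and -0.06 with it in WT cells. Kif23 was 61.4, 52.1, 46.9 and 54.8 CPM in Irgm1KO_fenofibrate and 21.7, 19.4, 20.98 and 21.1 CPM in Irgm1KO_control, and in WT cells 56.1, 47.8, 35.1 and 37.9 CPM in WT_fenofibrate and 44.7, 44.6, 39.8 and 46.3 CPM in WT_control. Every Irgm1KO_fenofibrate library lay above every WT_control library for Kif23, and every Irgm1KO_control library lay below (-1.08 in Irgm1KO_control against WT_control, 1.37 with fenofibrate in Irgm1KO cells and 0.01 with it in WT cells). Prc1 was 78.01, 58.2, 56.9 and 65.4 CPM in Irgm1KO_fenofibrate and 32.9, 27.4, 29.4 and 29.2 CPM in Irgm1KO_control, and in WT cells 61.1, 65.4, 43.6 and 47.9 CPM in WT_fenofibrate and 61.2, 73.4, 53.4 and 68.2 CPM in WT_control. Irgm1KO_fenofibrate and WT_control libraries overlapped for Prc1 (-1.11 in Irgm1KO_control against WT_control, 1.12 with fenofibrate in Irgm1KO cells and -0.23 with it in WT cells). Over the 9 genes of this group, 9 fell in Irgm1KO_control (median -0.95), 9 rose in Irgm1KO_fenofibrate (median 1.17), and 1, Kif20a, fell in WT_fenofibrate.

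Cdk1 was 58.9, 50.6, 41.97 and 50.4 CPM in Irgm1KO_fenofibrate and 28.2, 23.9, 25.3 and 27.1 CPM in Irgm1KO_control, and in WT cells 36.4, 39.5, 28.5 and 28.99 CPM in WT_fenofibrate and 34.7, 41.1, 32.3 and 38.04 CPM in WT_control. All Irgm1KO_fenofibrate libraries were above all libraries of the other 3 groups (-0.48 in Irgm1KO_control against WT_control, 0.95 with fenofibrate in Irgm1KO cells and -0.13 with it in WT cells). Ccnb1 was 31.6, 24.5, 22.2 and 26.3 CPM in Irgm1KO_fenofibrate and 13.9, 10.9, 11.6 and 12.1 CPM in Irgm1KO_control, and in WT cells 25.003, 26.6, 17.2 and 20.3 CPM in WT_fenofibrate and 26.6, 31.3, 21.9 and 28.04 CPM in WT_control. Its mean was lower in Irgm1KO_fenofibrate than in WT_control, within the spread of the libraries (-1.15 in Irgm1KO_control against WT_control, 1.11 with fenofibrate in Irgm1KO cells and -0.27 with it in WT cells). Cdc20 was 23.2, 18.5, 15.7 and 16.9 CPM in Irgm1KO_fenofibrate and 8.69, 7.66, 7.87 and 7.88 CPM in Irgm1KO_control, and in WT cells 17.9, 17.6, 12.3 and 14.02 CPM in WT_fenofibrate and 21.995, 25.4, 19.9 and 23.4 CPM in WT_control. For Cdc20 all WT_fenofibrate libraries lay below all WT_control libraries (-1.50 in Irgm1KO_control against WT_control, 1.21 with fenofibrate in Irgm1KO cells and -0.55 with it in WT cells). Ube2c was 47.3, 38.8, 33.5 and 38.5 CPM in Irgm1KO_fenofibrate and 17.7, 13.8, 13.5 and 15.8 CPM in Irgm1KO_control, and in WT cells 36.7, 35.7, 22.7 and 24.2 CPM in WT_fenofibrate and 36.6, 44.7, 34.4 and 42.7 CPM in WT_control. Its mean in Irgm1KO_fenofibrate was close to that in WT_control (-1.38 in Irgm1KO_control against WT_control, 1.38 with fenofibrate in Irgm1KO cells and -0.41 with it in WT cells).

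Plk1 was 35.9, 32.5, 24.4 and 28.6 CPM in Irgm1KO_fenofibrate and 12.3, 8.84, 9.83 and 10.8 CPM in Irgm1KO_control, and in WT cells 24.1, 24.8, 16.5 and 19.1 CPM in WT_fenofibrate and 25.1, 30.9, 23.6 and 30.1 CPM in WT_control. Plk1 had the largest interaction of the 40 members and overlapped between Irgm1KO_fenofibrate and WT_control (-1.39 in Irgm1KO_control against WT_control, 1.54 with fenofibrate in Irgm1KO cells and -0.38 with it in WT cells). Aurkb was 41.02, 32.002, 28.02 and 34.7 CPM in Irgm1KO_fenofibrate and 18.4, 15.4, 14.1 and 17.9 CPM in Irgm1KO_control, and in WT cells 27.81, 26.7, 19.3 and 18.3 CPM in WT_fenofibrate and 26.4, 30.2, 27.82 and 29.6 CPM in WT_control. All Irgm1KO_fenofibrate libraries exceeded all WT_fenofibrate libraries (-0.79 in Irgm1KO_control against WT_control, 1.04 with fenofibrate in Irgm1KO cells and -0.31 with it in WT cells). Birc5 was 35.7, 30.2, 25.4 and 30.5 CPM in Irgm1KO_fenofibrate and 14.3, 12.4, 12.3 and 12.3 CPM in Irgm1KO_control, and in WT cells 23.1, 25.7, 16.9 and 17.2 CPM in WT_fenofibrate and 19.98, 24.8, 19.1 and 22.9 CPM in WT_control. Its Irgm1KO_fenofibrate libraries lay above those of WT_control (-0.76 in Irgm1KO_control against WT_control, 1.25 with fenofibrate in Irgm1KO cells and -0.07 with it in WT cells). Bub1 was 42.5, 27.1, 29.9 and 39.8 CPM in Irgm1KO_fenofibrate and 18.7, 15.1, 15.02 and 16.7 CPM in Irgm1KO_control, and in WT cells 28.2, 33.3, 20.01 and 24.6 CPM in WT_fenofibrate and 21.7, 27.2, 20.1 and 23.7 CPM in WT_control. For Bub1 all Irgm1KO_control libraries were the lowest (-0.50 in Irgm1KO_control against WT_control, 1.09 with fenofibrate in Irgm1KO cells and 0.19 with it in WT cells). Ttk was 17.4, 11.4, 11.9 and 13.9 CPM in Irgm1KO_fenofibrate and 6.29, 6.03, 6.11 and 6.66 CPM in Irgm1KO_control, and in WT cells 11.99, 12.3, 8.14 and 8.97 CPM in WT_fenofibrate and 9.65, 10.7, 8.0995 and 10.1 CPM in WT_control. For Ttk all Irgm1KO_fenofibrate libraries were above those of WT_control (-0.62 in Irgm1KO_control against WT_control, 1.12 with fenofibrate in Irgm1KO cells and 0.11 with it in WT cells).

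Cenpa was 28.3, 23.7, 21.2 and 22.2 CPM in Irgm1KO_fenofibrate and 10.1, 8.51, 9.24 and 9.52 CPM in Irgm1KO_control, and in WT cells 25.9, 27.83, 17.9 and 17.5 CPM in WT_fenofibrate and 25.9, 30.5, 21.95 and 29.4 CPM in WT_control. WT_control had the highest mean, and Irgm1KO_fenofibrate libraries overlapped its range (-1.53 in Irgm1KO_control against WT_control, 1.35 with fenofibrate in Irgm1KO cells and -0.27 with it in WT cells). Cenpf was 56.3, 30.9, 36.3 and 36.7 CPM in Irgm1KO_fenofibrate and 14.1, 11.97, 16.5 and 14.1 CPM in Irgm1KO_control, and in WT cells 38.9, 50.6, 27.4 and 21.8 CPM in WT_fenofibrate and 41.5, 53.5, 37.9 and 37.01 CPM in WT_control. Irgm1KO_control libraries were far below those of WT_control (-1.59 in Irgm1KO_control against WT_control, 1.50 with fenofibrate in Irgm1KO cells and -0.29 with it in WT cells). Ndc80 was 32.96, 27.1, 23.6 and 28.8 CPM in Irgm1KO_fenofibrate and 16.6, 14.7, 15.7 and 16.3 CPM in Irgm1KO_control, and in WT cells 21.1, 22.99, 16.2 and 16.8 CPM in WT_fenofibrate and 18.1, 21.98, 17.3 and 18.6 CPM in WT_control. Its fall in Irgm1KO_control was not called, though its libraries lay below those of WT_control, and its rise with fenofibrate was (-0.26 in Irgm1KO_control against WT_control, 0.83 with fenofibrate in Irgm1KO cells and 0.02 with it in WT cells).

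Top2a was 487, 303, 319 and 399.7 CPM in Irgm1KO_fenofibrate and 160.3, 128, 142 and 147 CPM in Irgm1KO_control, and in WT cells 329, 360.0, 236 and 241 CPM in WT_fenofibrate and 285, 358, 267 and 321 CPM in WT_control. Irgm1KO_control libraries lay far below the rest for Top2a (-1.09 in Irgm1KO_control against WT_control, 1.39 with fenofibrate in Irgm1KO cells and -0.08 with it in WT cells). Mki67 was 269.6, 204, 202 and 208 CPM in Irgm1KO_fenofibrate and 49.5, 63.6, 91.5 and 66.99 CPM in Irgm1KO_control, and in WT cells 249.7, 275, 149 and 152 CPM in WT_fenofibrate and 164, 193, 130.2 and 157 CPM in WT_control. For Mki67 all Irgm1KO_fenofibrate libraries lay above those of WT_control, and the value in WT_fenofibrate was positive and not called (-1.25 in Irgm1KO_control against WT_control, 1.70 with fenofibrate in Irgm1KO cells and 0.36 with it in WT cells). Ncapg was 38.6, 25.01, 25.2 and 32.5 CPM in Irgm1KO_fenofibrate and 15.3, 12.98, 12.8 and 14.9 CPM in Irgm1KO_control, and in WT cells 23.1, 25.7, 16.8 and 19.3 CPM in WT_fenofibrate and 17.04, 20.2, 15.7 and 18.9 CPM in WT_control. It rose in Irgm1KO_fenofibrate to above every WT_control library (-0.36 in Irgm1KO_control against WT_control, 1.11 with fenofibrate in Irgm1KO cells and 0.24 with it in WT cells). Anln, of the contractile ring, was 59.9, 34.8, 39.6 and 47.5 CPM in Irgm1KO_fenofibrate and 23.9, 19.6, 21.1 and 20.8 CPM in Irgm1KO_control, and in WT cells 38.2, 38.4, 27.9 and 29.4 CPM in WT_fenofibrate and 34.1, 37.7, 29.4 and 35.8 CPM in WT_control. Anln was lowest in Irgm1KO_control (-0.68 in Irgm1KO_control against WT_control, 1.09 with fenofibrate in Irgm1KO cells and -0.03 with it in WT cells).

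Tpx2 was 89.9, 70.8, 63.4 and 75.5 CPM in Irgm1KO_fenofibrate and 139, 98.96, 93.96 and 129 CPM in Irgm1KO_control, and in WT cells 67.7, 66.9, 48.95 and 54.8 CPM in WT_fenofibrate and 62.8, 69.2, 56.6 and 66.6 CPM in WT_control. Pttg1 was 18.2, 19.8, 17.2 and 17.02 CPM in Irgm1KO_fenofibrate and 33.5, 28.9, 27.2 and 33.4 CPM in Irgm1KO_control, and in WT cells 16.7, 15.2, 17.8 and 16.03 CPM in WT_fenofibrate and 17.2, 18.7, 19.3 and 16.8 CPM in WT_control. For both genes all Irgm1KO_control libraries lay above those of every other group of experiment 2. Tpx2 changed by 0.85, SE 0.14, adjusted p = 9.78e-05 in Irgm1KO_control against WT_control and by -0.62, SE 0.14, adjusted p = 0.00184 with fenofibrate in Irgm1KO cells (edgeR). Pttg1 changed by 0.77, SE 0.077, adjusted p = 4.12e-07 and -0.77, SE 0.077, adjusted p = 7.09e-07 in these comparisons, and neither gene was called in WT_fenofibrate against WT_control (-0.10 and -0.13). Counts per gene do not separate the transcript forms of either gene.

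Set against WT_fenofibrate, Irgm1KO_fenofibrate cells had 13 members higher and 0 lower, where 18.1% of all genes were called higher and 15.2% lower. The median was 0.37 over the members and 0.01 over all genes. The 13 were Aurka, Aurkb, Anln, Birc5, Cdk1, Kif20a, Kif22, Ncapg, Ncaph, Ndc80, Plk1, Smc4 and Ttk. Cdk1 (0.60, SE 0.12), Aurkb (0.56, SE 0.14) and Birc5 (0.56, SE 0.13) were highest, and Mki67 (0.10), Cenpa (0.10) and Racgap1 (0.13) were lowest. Libraries did not overlap for 4 members, Aurka, Aurkb, Cdk1 and Ndc80, all higher, where 15.2% of all genes were higher without overlap and 13.7% lower, so the count of 4 is below the share of all genes. The count of 13 called higher moved with single libraries. It was 5 without Irgm1KO_fenofibrate replicate 1, 7 without WT_fenofibrate replicate 3, 8 without its replicate 4, 20 without Irgm1KO_fenofibrate replicate 3, and 25 without WT_fenofibrate replicate 2. For 34 members the mean of Irgm1KO_fenofibrate was above that of WT_control, and the 6 others were Ccnb1, Cdc20, Cenpa, Cenpf, Kif20a and Ube2c. Of the 4 groups of experiment 2, Irgm1KO_fenofibrate had the highest mean for 32 members and Irgm1KO_control the lowest for 38.

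The summed level of the 40 members was 2272 ± 384 CPM in Irgm1KO_fenofibrate, 1122 ± 81.0 CPM in Irgm1KO_control, 1825 ± 385 CPM in WT_fenofibrate and 1872 ± 217 CPM in WT_control (SD, n = 4 each). Irgm1KO_control libraries did not reach the range of the others. Progenitor markers summed to 6.38 to 10.5 CPM in Irgm1KO_fenofibrate, 4.55 to 6.6 CPM in Irgm1KO_control, 5.39 to 20.1 CPM in WT_fenofibrate and 5.98 to 25.3 CPM in WT_control, and neutrophil markers to 0.861 to 2.48, 0.345 to 0.592, 2.18 to 2.98 and 2.27 to 6.26 CPM in the same groups. Dendritic cell markers summed to 55.8 to 71.7 CPM in Irgm1KO_fenofibrate, 54.8 to 59.0 CPM in Irgm1KO_control, 8.52 to 24.7 CPM in WT_fenofibrate and 27.3 to 45.7 CPM in WT_control. Of the 10 neutrophil markers, 6 were at 0 in all Irgm1KO_fenofibrate libraries, 3 in all Irgm1KO_control libraries and 1 in all libraries of each WT group, and the dendritic marker Flt3 was at 0 in both fenofibrate groups. Macrophage marker sums were higher in Irgm1KO_fenofibrate than in Irgm1KO_control libraries, without overlap, and lower in Irgm1KO_control than in WT_control libraries, though 5 of the 10 single markers were called lower and 3 higher in Irgm1KO_fenofibrate against Irgm1KO_control. The part of these markers in the results was not tested.

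The fall with loss of Irgm1 was smaller in experiment 2 than in experiment 1. The difference between experiments was tested in a fit of all 28 libraries as the log2 fold change of Irgm1-KO against WT minus that of Irgm1KO_control against WT_control. It was negative and called for 31 members and positive and called for 1, Tpx2 (1.07, SE 0.20), where 3.81% of all genes were called negative and 2.44% positive. The median was -1.01 over the members and -0.03 over all genes. Birc5 (-1.80, SE 0.26), Ccna2 (-1.77, SE 0.25) and Nusap1 (-1.61, SE 0.22) differed the most. Kif20b, Aurka, Mki67, Racgap1, Cenpe, Smc4, Bub1b and Pttg1 were not called. All 40 members had a smaller log2 fold change in size in experiment 2, 39 had the same sign, and 34 fell and 2 rose in both. Xist, an RNA of female cells, was 50.8 to 231 CPM in the libraries of experiment 1. In each group there, the library lowest in Xist was the one that stood apart by gene length. Xist as a covariate therefore cannot separate sex from that trend in experiment 1. In experiment 2 Xist was at or below 1.78 CPM in replicates 2 and 4 of both WT groups. The same held for replicate 3 of both Irgm1KO groups. The other libraries of experiment 2 had 50.2 to 143 CPM. The experiments differ in read length, depth, count table and these Xist levels, and the parts of these differences cannot be told apart.

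The same lists were counted in experiment 2, beside shares of all genes called higher and lower of 27.3% and 26.1% in Irgm1KO_control against WT_control, 23.5% and 22.2% with fenofibrate in Irgm1KO cells, 18.1% and 16.9% with it in WT cells, and 18.1% and 15.2% in Irgm1KO_fenofibrate against WT_fenofibrate. Of the 38 DNA replication genes, 28 rose and 1 fell in Irgm1KO_control against WT_control (median 0.50), while 34 of the mitosis genes fell. With fenofibrate 23 rose and 1 fell in Irgm1KO cells, and 18 rose and 1 fell in WT cells, and in Irgm1KO_fenofibrate against WT_fenofibrate all 38 were higher (median 0.64). Of the 60 other mitosis genes, 41 fell and 1 rose in Irgm1KO_control (median -0.63), 58 rose and 0 fell with fenofibrate in Irgm1KO cells (median 0.99), and 5 rose and 1 fell with it in WT cells. Pbk (1.56), Spc25, a kinetochore protein (1.29), Psrc1 (1.42) and Fam83d, both of the spindle (1.66), had the smallest p of this list in Irgm1KO_fenofibrate. Of the DREAM, FOXM1 and E2F regulators, 7 rose and 6 fell in Irgm1KO_control, and 11 rose and 4 fell with fenofibrate in Irgm1KO cells, Foxm1 (1.44, SE 0.16) and Mybl2, which encodes B-MYB (0.84, SE 0.12), among the risers. Foxm1 also had a called interaction (1.27, SE 0.22, adjusted p = 5.01e-04, edgeR). Of the G1 cyclins and growth factor response genes, 7 rose and 1 fell in Irgm1KO_control, with Ccnd1 at 1.71, Ccne1 at 1.85, Ccnd2 at 1.84 and Csf1 at 1.61. Ccnd1 fell with fenofibrate in both genotypes (-0.68 in Irgm1KO and -0.77 in WT cells). Of the 17 anaphase-promoting complex subunits, 3 rose and 2 fell in Irgm1KO_control, and 8 rose and 2 fell with fenofibrate in Irgm1KO cells. The 13 cohesin and condensin genes gave 5 lower in Irgm1KO_control and 6 higher with fenofibrate in Irgm1KO cells. Inhibitors of cyclin-dependent kinases and p53 targets gave 6 higher and 7 lower in Irgm1KO_control, and 5 higher and 6 lower with fenofibrate in Irgm1KO cells, with Cdkn2c, an inhibitor of Cdk4 and Cdk6, at -0.99 and 1.14.

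Per kilobase of exon, the level of the members covered a wide range. Top2a had the highest level in Irgm1KO_fenofibrate, at 72.3 ± 16.2 CPM per kilobase, in WT_fenofibrate at 55.9 ± 11.99, in WT_control at 58.96 ± 7.77 and in WT at 29.96 ± 4.38 (SD, n = 4 each). Ttk and Cenpf were the lowest in WT, at 1.79 ± 0.292 and 2.08 ± 0.629 CPM per kilobase, and did not differ from each other beyond their spread. Tpx2 (32.04 ± 2.11) and Pttg1 (23.8 ± 3.69) were the highest in Irgm1-KO, and Cenpf (0.242 ± 0.0539) and Ttk (0.522 ± 0.09504) the lowest there. Within a group the coefficient of variation of the members had a median of 18.1% in Irgm_IFNAR-KO, 10.4% in Irgm1-KO and 17.03% in WT, and 17.2% in Irgm1KO_fenofibrate, 9.71% in Irgm1KO_control, 20.3% in WT_fenofibrate and 12.4% in WT_control. The highest single value was 47.3%, for Cenpa in WT.

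Counts do not give the strand used, and 8 members overlap a protein-coding gene on the opposite strand, Kif20a with Cdc23, Prc1 with Rccd1, Ccna2 with Exosc9, Cdc20 with Elovl1, Nusap1 with Oip5, Kif4 with Pdzd11, Ncapg with Lcorl and Ube2c with Tnnc2. In Irgm1-KO against WT, Oip5 was lower (log2 fold change -0.90, edgeR adjusted p = 0.0092), Cdc23 was lower (-0.29, edgeR adjusted p = 0.0104), and Pdzd11 was higher (0.62, edgeR adjusted p = 0.0211). Rccd1, Exosc9, Elovl1 and Lcorl were not called, with log2 fold changes of 0.49, 0.10, 0.16 and -0.16, and Tnnc2 was not tested there. Leaving out the 8 members gave 30 lower and 2 higher of 32 in Irgm1-KO against WT, 31 lower in Irgm_IFNAR-KO against WT, 27 lower and 2 higher in Irgm1KO_control against WT_control, and 30 higher and 2 lower in Irgm1KO_fenofibrate against Irgm1KO_control. Kif20a and Cdc20, the members called lower in WT_fenofibrate without the block, are among the 8. In that comparison Cdc23, which overlaps Kif20a, was higher (0.21, edgeR adjusted p = 0.0096). Elovl1, which overlaps Cdc20, was not called (0.05). The part of the overlaps in these calls was not tested.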

How the data were processed

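The authors' deposited count tables give whole reads per gene for 12 libraries of experiment 1 and 16 of experiment 2. The submitters' processing notes name fastp, STAR, DESeq2 and GRCm39. The counting tool was not given in the sources used here, nor were the annotation and the strandedness. The table of experiment 1 holds no gene whose highest count is under 10, so it had been filtered, and 26301 genes of the table of experiment 2 are 0 throughout. Symbols were matched to 99.6% and 91.2% of IDs, and 280 of 281 list entries were found. Names of pseudogenes of Ccnb1, Ccnb2, Kif4 and Kif22 exist, and reads from near-copies may be shared.

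Each experiment was fitted on its own with edgeR 4.0.16 (R 4.3.3) on the counts: filterByExpr (minimum count 10, minimum total 15), TMM scaling, robust quasi-likelihood test with Benjamini-Hochberg adjustment over 13998 and 15429 genes, threshold 0.05. A joint fit (15114 genes) gave the difference between experiments. Standard errors are the log2 fold change over the root of F. Depth was 48652844 to 120844616 counts per library. Replicates differed beyond counting noise in every pair. On simulated data for Irgm1-KO against WT, 42 of 47 genes set to a log2 change of -1 were called, and 7 of 13650 unchanged ones. For Irgm1KO_control against WT_control these were 33 of 43 and 9 of 15009. Each simulation changed only 200 genes, with independent noise and neither a trend with gene length nor paired libraries. The measured Irgm1-KO against WT comparison called 5660 genes, so these rates need not hold for the measured data.

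Where a gene is called, its adjusted p was under the threshold. Members followed under alternative processing were the 20 with per-library values, plus in each comparison the 3 highest, the 3 lowest and called members that went against the majority. Further members are named in the text by role or by call, and up to 4 genes with the smallest p of each other list. The members and lists were chosen with earlier results of these data known. Same-numbered control and fenofibrate libraries correlated at 0.38 to 0.49 in WT and 0.26 to 0.37 in Irgm1KO cells, so numbers pair these libraries. They did not pair libraries across genotypes in experiment 2 (-0.29 to 0.03). In experiment 1 same-numbered libraries correlated at -0.48 to 0.52 and differently numbered ones at -0.68 to 0.72. The 3 libraries of experiment 1 that stood apart by a fall with gene length correlated at 0.58 to 0.72 with each other, though numbered differently. Pairing in experiment 1 could therefore not be judged. DESeq2 1.42.0, other scalings, filters, thresholds, a length offset, Xist as a covariate, the block, and leaving out replicates were tried as alternatives. The length offset, leaving out the 3 libraries that stood apart and leaving out overlapping members were chosen after seeing the data. Promoter sequences are RefSeq's, GRCm38.p6.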

Additional observations from a re-analysis of the deposited data

Results flagged for a closer look

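Of 154 groups of 4 libraries, 9 had a highest or lowest library set apart by a gap above Dixon's 95% critical value, where chance gives about 1 in 20. In WT, replicate 2 was highest for Birc5 (31.57 CPM), Cenpa (61.2 CPM) and Ndc80 (23.53 CPM), the library with the steepest fall of values with gene length. Irgm1-KO had a high Pttg1 library (51.73 CPM) and a low Aurkb library (7.237 CPM). Irgm_IFNAR-KO had a low Ube2c library (6.913 CPM) and a high Ncapg library (5.183 CPM). Irgm1KO_control had a high Birc5 library (14.26 CPM), and Irgm1KO_fenofibrate a high Mki67 library (269.7 CPM).

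The change with fenofibrate differed between genotypes by the interaction test, which called 37 members positive and 1 negative. The change with loss of Irgm1 differed between experiments, with 1 member called positive and 31 negative.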

How the results depend on the processing

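Counts of members called in Irgm1-KO against WT, Irgm_IFNAR-KO against WT, Irgm1KO_control against WT_control and Irgm1KO_fenofibrate against Irgm1KO_control stayed within 1.5 times under every alternative run. In Irgm_IFNAR-KO against Irgm1-KO, the members called lower were 2 at a threshold of 0.01, and 2 to 3 with 1 replicate left out. In WT_fenofibrate against WT_control, DESeq2 called 4 lower, the replicate block 1 higher and 10 lower, a threshold of 0.01 called 1 lower, and 0 were lower with the overlapping members left out. With 1 replicate left out, 0 to 1 were higher and 2 to 6 lower, and the median was -0.20 to 0.0065. In Irgm1KO_fenofibrate against WT_fenofibrate, 8 were higher with no filter on low counts, 5 in a fit of only these groups, 22 with the replicate block, whose numbers do not pair libraries across genotypes, and 4 at 0.01, and 5 to 25 with 1 replicate left out. The interaction called 2 members negative with DESeq2 and 2 with the replicate block, and 1 to 2 with 1 replicate left out. With a length offset 2 members were positive in the difference between experiments. The pairing changed no other call count by over 1.5 times.

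The members followed under alternative processing changed sign only where they were not called. Smc4 in Irgm1KO_control against WT_control was -0.0023 with DESeq2's test or size factors, -0.0057 with Xist as a covariate, -0.0155 with no filter and -0.0033 in a fit of only these groups, and -0.033 to 0.059 with 1 replicate left out. In WT_fenofibrate against WT_control, Kif23 was -0.0113 with the replicate block and -0.124 to 0.106 with 1 replicate left out. The same ranges were -0.188 to 0.0182 for Birc5, -0.189 to 0.0358 for Kif11, -0.196 to 0.00997 for Top2a, -0.0768 to 0.0926 for Ndc80 and -0.108 to 0.0429 for Anln. In Irgm1KO_fenofibrate against WT_fenofibrate they were -0.0318 to 0.266 for Mki67, -0.0082 to 0.221 for Cenpa and -0.0126 to 0.447 for Cenpf. The causes were not tested. Of all values of these followed members under alternatives, 3598 kept direction and side of the threshold, 73 gained a call, 97 lost one and 33 reversed. The lowest count of a member in any library was 71, for Ttk in Irgm1-KO, so depth left no member near 0.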
